A study of Mus musculus with 4 samples.

Results

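The genes described here are the protein tyrosine phosphatases and dual-specificity phosphatases of liver natural killer (NK) cells. They were taken by name: every gene whose symbol is Ptpn or Dusp followed by a number, or starts with Ptpr, which gave 63 of 21025 genes, 22 with Ptpr, 17 with Ptpn and 24 with Dusp symbols. One of them, Ptprcap, encodes a protein that binds the CD45 phosphatase and is not itself an enzyme. The data were polyA RNA-seq of NK cells sorted from the liver of C57BL/6 mice, from a study of the transcription factor Nfil3 in NK cell development. TRAIL+ cells (TCRb- NK1.1+ NKp46+ and without CD49b) were compared with CD49b+ cells (TCRb- NK1.1+ NKp46+ and without TRAIL), with 2 libraries of each. No gene alteration or treatment is named for either group, and their age and number are not stated in the labels. Whether replicate libraries came from different mice is not stated either. The p-values therefore cover library-to-library spread only, and that spread may be technical.

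Protein tyrosine phosphatases remove phosphate from tyrosine and so oppose the kinases that carry receptor signals. In lymphocytes CD45 keeps Src family kinases ready to act, and the SH2-domain phosphatases are recruited by inhibitory receptors of NK cells to stop activating signals. Many dual-specificity phosphatases inactivate MAP kinases by removing phosphate from both threonine and tyrosine, and several of them are transcribed in response to the same kinases that they turn off.

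Levels are given in RPKM, in which reads are divided by the length of the gene and the size of the library, so that genes can be compared with each other. The reads behind a library ranged from 3786497 to 4232967, so 1 read in a gene of 2000 bases was worth 0.118 to 0.132 RPKM. Tnfsf10, which encodes TRAIL, was at 208 and 189 RPKM in TRAIL+ cells and at 7.26 and 6.94 RPKM in CD49b+ cells, and Itga2, which encodes CD49b, was at 5.26 and 1.55 RPKM against 52.1 and 37.0 RPKM. Of 6 NK cell markers, Ncr1 and Klrb1c, which encode the NKp46 and NK1.1 of the gate, were at 901 RPKM or more in every library. Prf1, which encodes perforin, was lower in TRAIL+ cells (331 and 308 RPKM against 1872 and 1802 RPKM, limma adjusted p = 0.00235), and the other 5 were not called. Markers of T cells summed to 65.9 and 125 RPKM in TRAIL+ and to 14.0 RPKM in both CD49b+ libraries. All 4 measured (Cd3e, Cd3d, Cd8a and Cd4) passed the test described below as higher in TRAIL+ cells, 3 of them without CD49b+ replicate 1 and 2 without CD49b+ replicate 2. Markers of Kupffer cells and monocytes summed to 15.2 to 94.2 RPKM in TRAIL+ and 14.9 to 135 RPKM in CD49b+ libraries, mostly from Lyz2, which was at 81.9 and 122.5 RPKM in replicate 1 and at 9.21 and 8.87 RPKM in replicate 2 of TRAIL+ and CD49b+ cells. Markers of hepatocytes summed to 3.64 to 18.4 RPKM in TRAIL+ and 1.28 to 17.8 RPKM in CD49b+ libraries, mostly from Alb. Alb was at 12.7 and 14.8 RPKM in replicate 1 and at 1.92 and 0.865 RPKM in replicate 2 of TRAIL+ and CD49b+ cells. Those of B cells summed to 12.2 to 23.3 RPKM over all 4 libraries. Dendritic cell markers summed to 3.73 to 4.28 RPKM in TRAIL+ and 1.00 to 3.11 RPKM in CD49b+ libraries, and the 1 tested, Xcr1, was called higher in TRAIL+ cells (54 and 54 reads against 2 and 1, limma adjusted p = 0.00718). The others did not share 1 direction. Zbtb46 had 14 and 13 reads in TRAIL+ against 32 and 24 in CD49b+ libraries, Siglech 3 and 0 against 18 and 0, and Flt3 7 and 0 against 1 and 0. Neutrophil markers summed to 3.90 to 19.8 RPKM in TRAIL+ and 0.644 to 20.8 RPKM in CD49b+ libraries, with S100a9 at 14.0 and 14.9 RPKM in the replicate 1 libraries and Elane at 0 in all. Endothelial markers summed to 41.4 to 53.0 RPKM, nearly all from Pecam1, with Tek at 0 in all libraries. Cdh5, Kdr and Stab2 were at 0.123 RPKM or less in every library. Mast cell and basophil markers summed to 1.22 to 2.56 RPKM, with Fcer1a at 0 in all. A value of 0 is not proof of absence, since Rpl26, a ribosomal protein gene that every cell uses, was also listed at 0 in all libraries.

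Of the 63 genes, 34 had an RPKM of at least 1 in at least 2 libraries and were tested, together with all other genes that passed this filter. At an adjusted p under 0.05, with limma on log2(RPKM + 1) and Benjamini-Hochberg adjustment over 10047 genes, 3 of the 34 were higher in TRAIL+ cells (Dusp6, Dusp7 and Ptprj) and 1 was lower (Ptpn12). Without TRAIL+ replicate 1 the genes called lower were 5 and without TRAIL+ replicate 2 they were 2, with 5 higher in the latter case. Without CD49b+ replicate 1, and likewise without replicate 2, Dusp6 alone was called. With no library left out, 8.62% of all tested genes were called in either direction, 4.76% as higher and 3.86% as lower. The share of the phosphatase genes, 4 of 34 or 11.8%, was near that background and is no result about the family. Their median log2 fold change was 0.0058, beside 0.0050 over all tested genes, with 17 values above and 17 below 0. In these bulk samples, fewer cells that express a gene and less RNA per cell cannot be told apart.

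**Figure D1:**
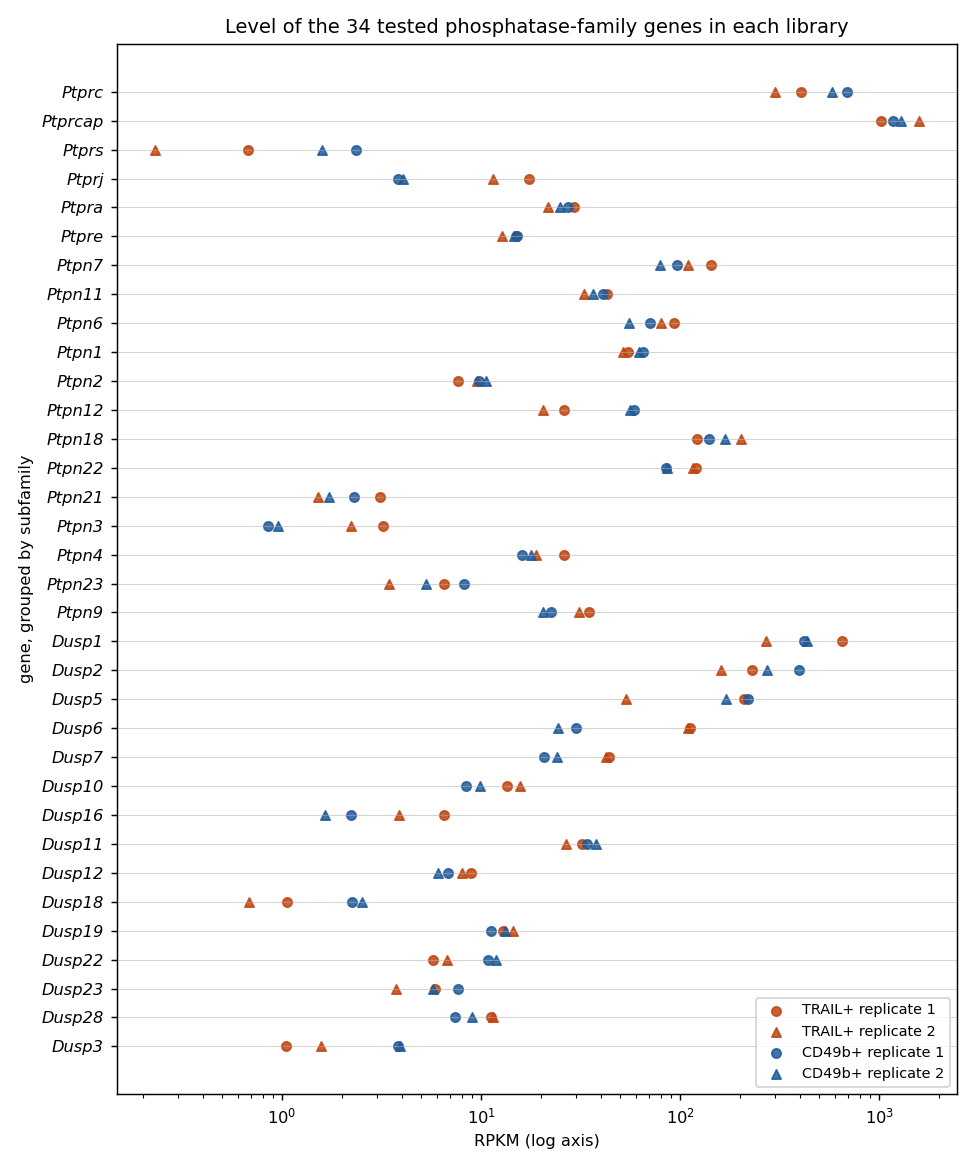
RPKM (log axis) of the 34 tested phosphatase-family genes in each of the 4 libraries, with circles for replicate 1 and triangles for replicate 2. Levels span from 0.230 RPKM for Ptprs to 1587 RPKM for Ptprcap, and the points of the 2 groups lie apart for Dusp6, Dusp7, Ptprj and Ptpn12, among others.

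The MAP kinase phosphatases that act on ERK in the cytoplasm held the largest tested difference in the family. Dusp6, which dephosphorylates ERK and is itself a target of ERK signalling, was at 111.6 and 109.6 RPKM in TRAIL+ cells and at 29.9 and 24.3 RPKM in CD49b+ cells. Both TRAIL+ libraries lay far above both CD49b+ libraries. The mean of 110.6 ± 1.4 RPKM (SD, n = 2) was 4.08-fold that of 27.1 ± 3.91 RPKM (SD, n = 2), or 2.00 ± 0.17 (SE) on the log2 scale, with a limma adjusted p of 0.00267. Dusp6 passed under all 14 other settings tried, with log2 fold changes of 1.85 to 2.14 and adjusted p of 2.35e-05 to 0.0204.

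Dusp7, the close relative of Dusp6 that also prefers ERK, was at 44.0 and 42.2 RPKM in TRAIL+ cells and at 20.7 and 24.1 RPKM in CD49b+ cells. The groups did not overlap, and the means differed 1.92-fold. The log2 fold change was 0.92 ± 0.17 (SE, limma adjusted p = 0.0287). Dusp7 no longer passed when CD49b+ replicate 1 or replicate 2 was left out, while its log2 fold change was 0.81 and 1.02. Dusp9, the remaining gene of this group, was under the filter, with 3 reads over both TRAIL+ libraries and 9 over both CD49b+ libraries. Its ratio of CD49b+ to TRAIL+ was 2.89 with a 95% interval of 0.720 to 16.6 from counting error only. Dusp6 and Dusp7 thus made up the group's measurable RNA, and both were higher in TRAIL+ cells. T cell markers and Xcr1 were higher in the same libraries, and their part in these results was not tested.

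The inducible nuclear phosphatases Dusp1, Dusp2 and Dusp5 had higher means over the 4 libraries than Dusp6 and Dusp7, and varied more between the TRAIL+ replicates. Dusp1, an immediate-early gene whose product acts on JNK, p38 and ERK, was at 652 and 268 RPKM in TRAIL+ cells and at 417 and 435 RPKM in CD49b+ cells. The 2 TRAIL+ libraries lay on either side of both CD49b+ libraries. The difference on the log2 scale, -0.03, had a 95% interval from -1.09 to 1.03 (limma adjusted p = 0.989), so a difference of up to about that size in either direction was not detectable.

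Dusp5, a nuclear phosphatase specific to ERK, was at 209 and 53.3 RPKM in TRAIL+ cells and at 220 and 171 RPKM in CD49b+ cells. TRAIL+ replicate 2 was the one low library. The log2 fold change of -0.87 (95% interval -2.41 to 0.67) had a limma adjusted p of 0.563. Without TRAIL+ replicate 1 it was -1.84 (adjusted p = 0.00146) and without TRAIL+ replicate 2 it was 0.11 (adjusted p = 0.824), so the value rests on which TRAIL+ library is taken.

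Dusp2, a phosphatase of activated lymphocytes, was at 229 and 161 RPKM in TRAIL+ cells and at 395 and 273 RPKM in CD49b+ cells. Both TRAIL+ libraries were below both CD49b+ libraries, and replicate 2 was the lower library in each group. The log2 fold change of -0.77 (95% interval -1.46 to -0.08) did not pass after adjustment (limma adjusted p = 0.198), though it did without TRAIL+ replicate 1 (-1.02, adjusted p = 0.035). Dusp4, the fourth gene of this group and also a nuclear phosphatase, was under the filter with 7, 0, 10 and 4 reads in TRAIL+ replicates 1 and 2 and CD49b+ replicates 1 and 2.

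Between the TRAIL+ replicates, the spread of Dusp1, Dusp2 and Dusp5 ran in the same direction as that of other immediate-early genes, which are switched on within minutes of cell stimulation. In TRAIL+ replicate 2, 20 of 20 tested immediate-early genes were lower than in replicate 1, with a median difference of -0.89 on the log2(RPKM + 1) scale. Atf3, a stress-induced transcription factor, differed by -3.03, and Nr4a1, an orphan nuclear receptor induced by antigen receptor signals, by -2.37. Among all 10047 tested genes 5069 were lower in that library, with a median of -0.0060. Of the 34 tested phosphatase genes 26 were lower there, with a median of -0.28. This direction was therefore not particular to Dusp1, Dusp2 and Dusp5, and Ptpn23 (-0.76) differed by more than Dusp2 (-0.51).

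In CD49b+ cells 17 of 20 immediate-early genes were lower in replicate 2, with a smaller median of -0.35. Dusp1, Dusp2 and Dusp5 differed by -1.28, -0.51 and -1.95 between the TRAIL+ libraries. Dusp6 differed by -0.03 and Dusp7 by -0.06 between the same libraries. Between the CD49b+ libraries this contrast held only in part. Dusp2 (-0.53) and Dusp5 (-0.36) were below Dusp6 (-0.28) and Dusp7 (0.21), while Dusp1 (0.06) was above Dusp6. Lyz2 and Alb were also lower in replicate 2 of both groups, as given above. Not all markers shared this direction. Cpa3 had 3 and 9 reads in TRAIL+ replicates 1 and 2, and 6 and 7 in CD49b+ replicates 1 and 2. The part of other cells in these values was not tested.

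**Figure D2:**
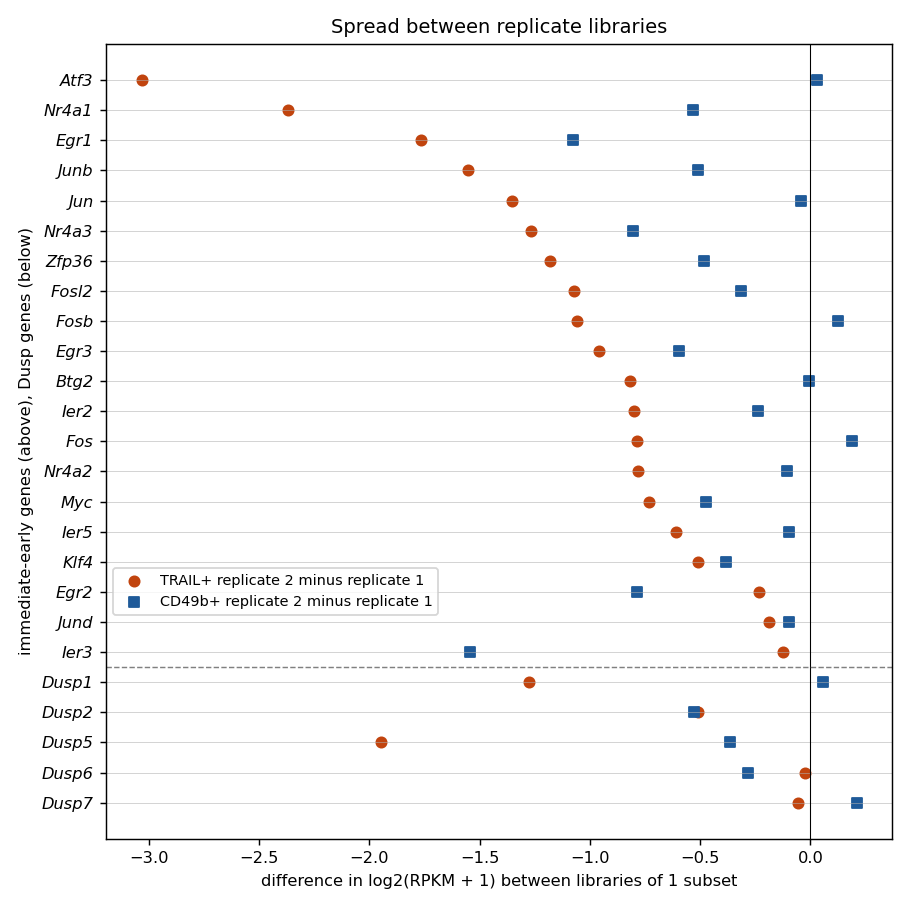
Difference in log2(RPKM + 1) between replicate 2 and replicate 1 of each group, for the 20 tested immediate-early genes (above the dashed line) and for Dusp1, Dusp2, Dusp5, Dusp6 and Dusp7 (below it). All 20 immediate-early genes lie left of 0 in TRAIL+ cells, as do Dusp1, Dusp2 and Dusp5, while Dusp6 and Dusp7 lie near 0 in TRAIL+ cells and at -0.28 and 0.21 in CD49b+ cells.

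Promoter sequence was examined for Dusp1, Dusp5 and Dusp6, the genes with a large (Dusp1 and Dusp5) or small (Dusp6) difference between the TRAIL+ replicates, chosen after their values were seen. The windows run from 250 bases before to 50 bases after the start site, from RefSeq on GRCm38.p6 (the authors aligned to the earlier mm9), and capitals mark the motif matches.
Dusp1 (chr17:26508423-26508722, minus strand): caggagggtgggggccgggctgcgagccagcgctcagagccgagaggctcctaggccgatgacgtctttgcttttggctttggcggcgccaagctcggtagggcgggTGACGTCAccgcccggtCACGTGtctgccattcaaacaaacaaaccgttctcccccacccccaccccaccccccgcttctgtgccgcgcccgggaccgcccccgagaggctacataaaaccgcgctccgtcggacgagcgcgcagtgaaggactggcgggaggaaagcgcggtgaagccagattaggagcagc
Dusp5 (chr19:53528895-53529194, plus strand): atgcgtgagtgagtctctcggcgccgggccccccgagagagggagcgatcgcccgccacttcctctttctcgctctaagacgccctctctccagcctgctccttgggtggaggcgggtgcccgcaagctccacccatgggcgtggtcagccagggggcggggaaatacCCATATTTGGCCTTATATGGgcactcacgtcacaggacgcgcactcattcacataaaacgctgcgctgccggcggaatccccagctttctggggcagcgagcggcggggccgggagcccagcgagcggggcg
Dusp6 (chr10:99262981-99263280, plus strand): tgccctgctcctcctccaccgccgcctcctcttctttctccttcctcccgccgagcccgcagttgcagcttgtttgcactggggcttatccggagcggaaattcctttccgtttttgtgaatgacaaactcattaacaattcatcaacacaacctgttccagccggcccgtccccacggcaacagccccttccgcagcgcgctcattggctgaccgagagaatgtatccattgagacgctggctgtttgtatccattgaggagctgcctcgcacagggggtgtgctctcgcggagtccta
The capitals in Dusp1 are a cAMP response element, TGACGTCA, from -143 to -136 and an E-box, CACGTG, from -126 to -121. Those in Dusp5 are 2 adjoining SRF CArG boxes from -82 to -73 and from -72 to -63. Dusp6 held none of the 6 motifs searched on both strands, which says only that these letters are not in this window.

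Over all windows, TGACGTCA was in 1.79% of 32851 and in 5 of the 67 windows of phosphatase genes (7.46%), those of Dusp1, Dusp8, Ptpn11, Ptprs and Ptpru. The SRF CArG box was in 1.63% of all windows and in 3 of 67 (4.48%), from Dusp5 and Ptprr. The E-box was in 7.15% of all and 4.48% of member windows, the AP-1 motif in 5.2% and 4.48%, and the ETS motif CCGGAAG in 8.86% and 8.96%. The T-box motif AGGTGTGA was in 1.28% of all windows and in 0 of 67. A motif match is a description of sequence, and binding was not measured here.

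The MAP kinase phosphatases directed at JNK and p38 were lower in level. Dusp10, which acts on JNK and p38, was at 13.6 and 15.7 RPKM in TRAIL+ cells and at 8.44 and 9.92 RPKM in CD49b+ cells, which differ by 0.62 ± 0.19 on the log2 scale (SE, limma adjusted p = 0.144). Dusp16, which anchors to JNK, was at 6.53 and 3.87 RPKM against 2.22 and 1.64 RPKM, which differ by 1.06 ± 0.29 on the log2 scale (SE, limma adjusted p = 0.103). For both genes the TRAIL+ libraries lay above the CD49b+ libraries, yet neither passed the test. Dusp16 passed without TRAIL+ replicate 2 (1.37, adjusted p = 0.0223) and with a trend on gene length removed from each library, an alternative chosen after seeing the data (1.08, adjusted p = 0.0314). Dusp8 had 0 reads in TRAIL+ and 4 reads in CD49b+ libraries.

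Atypical dual-specificity phosphatases lack the MAP kinase docking domain. Dusp22, which dampens T cell receptor signalling by dephosphorylating Lck, was at 5.75 and 6.75 RPKM in TRAIL+ cells and at 10.9 and 11.9 RPKM in CD49b+ cells. The groups did not overlap, and the log2 fold change of -0.78 ± 0.19 (SE) was not called (limma adjusted p = 0.0783), although Dusp22 passed with the trend on gene length removed (-0.80, adjusted p = 0.0395). Dusp14, a small phosphatase known to restrain T cell receptor signalling, was listed at 0 in all libraries.

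Of 14 atypical genes 8 were tested, and the other tested ones (Dusp3, Dusp11, Dusp12, Dusp18, Dusp19, Dusp23 and Dusp28) ranged from 0.684 to 37.7 RPKM in single libraries. Dusp3, chosen after its values were seen, came nearest to the threshold. It was at 1.05 and 1.58 RPKM in TRAIL+ cells and at 3.84 and 3.91 RPKM in CD49b+ cells (log2 fold change -1.08 ± 0.23 SE, limma adjusted p = 0.0515), and it passed without TRAIL+ replicate 2 (adjusted p = 0.0257) and with voom on whole reads (adjusted p = 0.0343).

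**Figure D3:**
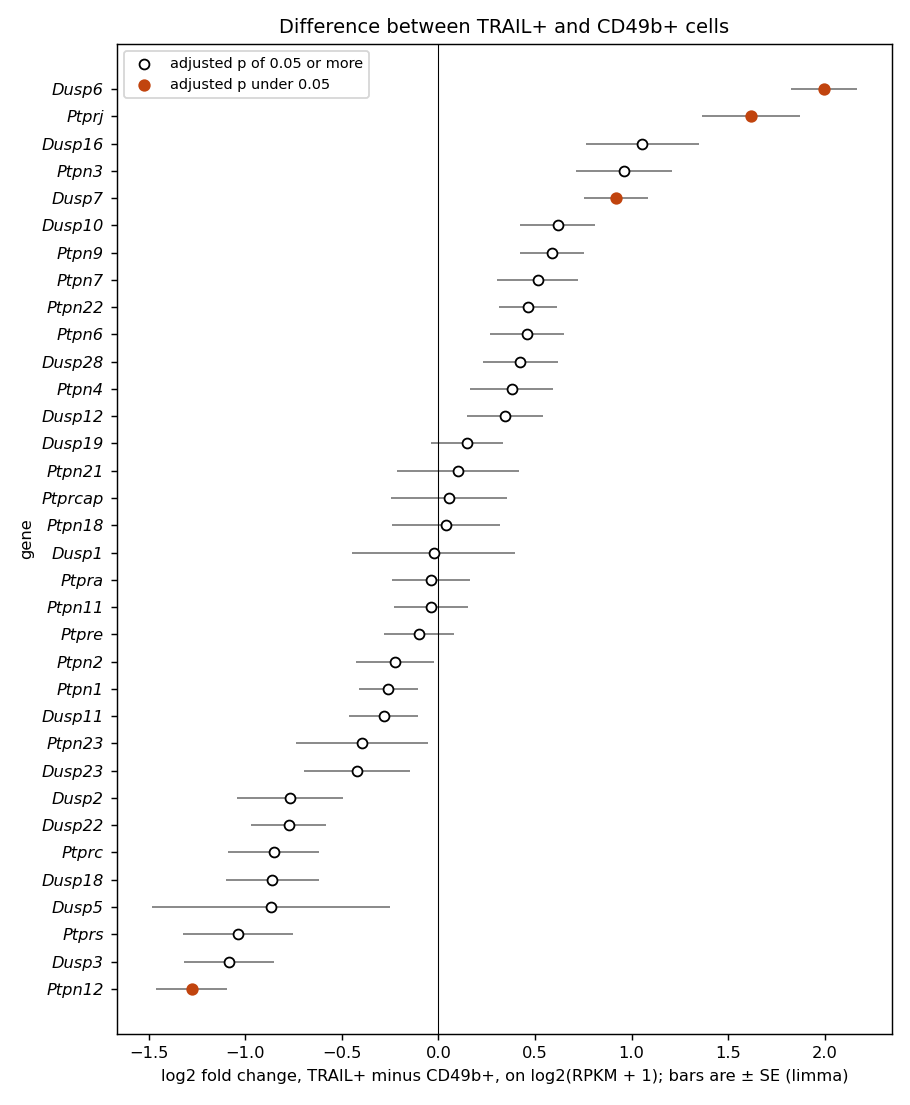
Log2 fold change, TRAIL+ minus CD49b+, of the 34 tested phosphatase-family genes on the log2(RPKM + 1) scale, in order of size, with bars of ± 1 SE from limma and filled points for adjusted p under 0.05. Filled points are Dusp6 (2.00), Ptprj (1.62), Dusp7 (0.92) and Ptpn12 (-1.28), and the bar of Dusp5 is the widest of all.

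Among the receptor-type genes, CD45 and its partner had the highest means of the whole family over the 4 libraries, although in TRAIL+ cells the mean of Dusp1 (460.0 RPKM) was above that of Ptprc (351.6 RPKM). Ptprcap was at 1024 and 1587 RPKM in TRAIL+ cells and at 1166 and 1292 RPKM in CD49b+ cells, and these ranges overlapped (log2 fold change 0.05, 95% interval -0.69 to 0.80, limma adjusted p = 0.966). Ptprc, which encodes CD45, was at 404 and 299 RPKM in TRAIL+ cells and at 685 and 576 RPKM in CD49b+ cells. Both TRAIL+ libraries lay below both CD49b+ libraries, a 1.79-fold difference of the means, but the log2 fold change of -0.85 (95% interval -1.44 to -0.26) did not pass (limma adjusted p = 0.103).

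Ptprc and Ptprcap moved in opposite directions between the TRAIL+ replicates, as genes of their lengths did. From replicate 1 to replicate 2 of TRAIL+ cells the median difference was 0.58 over 699 tested genes under 1000 bases and -0.32 over 3178 genes over 4000 bases. Ptprcap (848 bases) differed by 0.63 and Ptprc (5697 bases) by -0.44. With the trend on length removed, Ptprc was at -0.81 with an adjusted p of 0.00972. It also passed without TRAIL+ replicate 1 (-1.07, adjusted p = 0.0182).

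Ptprj was the receptor-type gene called between the groups. It encodes CD148, a phosphatase of leukocytes that acts on Src family kinases, and was at 17.5 and 11.4 RPKM in TRAIL+ cells and at 3.82 and 4.05 RPKM in CD49b+ cells. The groups were far apart, although the 2 TRAIL+ libraries differed by more than the 2 CD49b+ libraries. The mean of 14.4 ± 4.28 RPKM (SD, n = 2) was 3.67-fold that of 3.94 ± 0.163 RPKM (SD, n = 2), or 1.62 ± 0.25 on the log2 scale (SE, limma adjusted p = 0.0175). Ptprj no longer passed when CD49b+ replicate 1 or replicate 2 was left out, while its log2 fold change was 1.58 and 1.65.

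Ptpra and Ptpre, which share a short extracellular part and can activate Src family kinases, overlapped between the groups. Ptpra was at 29.4 and 21.7 RPKM in TRAIL+ cells and at 27.3 and 24.8 RPKM in CD49b+ cells (log2 fold change -0.04 ± 0.20 SE, limma adjusted p = 0.964). Ptpre was at 15.0 and 12.7 RPKM against 15.2 and 14.6 RPKM (-0.10 ± 0.18 SE, limma adjusted p = 0.856).

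The other receptor-type genes were at or near 0. Ptprs, a gene of the LAR group, was at 0.677 and 0.230 RPKM in TRAIL+ cells and at 2.37 and 1.59 RPKM in CD49b+ cells, was not called (limma adjusted p = 0.102) and passed without TRAIL+ replicate 1 (adjusted p = 0.0361). Ptprk, of the group with a MAM domain, had 0 reads in both TRAIL+ libraries and 25 and 16 reads in the CD49b+ libraries, and was chosen for mention after its values were seen. Taking 3 reads over both TRAIL+ libraries as the floor, the CD49b+ level of Ptprk was 13.2-fold that floor, with no test. This value leaves out the counting error of the CD49b+ reads. Ptprf, Ptprh, Ptprm, Ptpro and Ptprv had at most 8 reads in any library. Ptprb, Ptprd, Ptprg, Ptprn, Ptprn2, Ptprq, Ptprr, Ptprt, Ptpru and Ptprz1 were listed at 0 in all libraries.

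Among the cytoplasmic phosphatases, the PEST group held the one gene called lower in TRAIL+ cells. Ptpn12, which encodes PTP-PEST, a regulator of adhesion and cytoskeletal signalling through Pyk2 and paxillin, was at 26.1 and 20.5 RPKM in TRAIL+ cells and at 58.9 and 56.2 RPKM in CD49b+ cells. Both TRAIL+ libraries were well below both CD49b+ libraries. The mean of 57.6 ± 1.90 RPKM (SD, n = 2) in CD49b+ cells was 2.47-fold that of 23.3 ± 4.0 RPKM (SD, n = 2) in TRAIL+ cells, or -1.28 ± 0.18 on the log2 scale (SE, limma adjusted p = 0.0129). Ptpn12 no longer passed when CD49b+ replicate 1 or replicate 2 was left out, while its log2 fold change was -1.24 and -1.31.

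For its relatives no difference was called. Ptpn22, which works with the kinase Csk to restrain Src family kinases, was at 120 and 116 RPKM in TRAIL+ cells and at 84.5 and 85.9 RPKM in CD49b+ cells. The libraries of each group were close to each other, and the log2 fold change of 0.46 (95% interval 0.09 to 0.84) did not pass (limma adjusted p = 0.157). Ptpn18, a further PEST-group enzyme, was at 122 and 202 RPKM against 140 and 167 RPKM, and the CD49b+ libraries lay between the TRAIL+ libraries (0.04 ± 0.28 SE, limma adjusted p = 0.975).

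The SH2-domain phosphatases were present in all libraries. Ptpn6, which encodes SHP-1, the enzyme recruited by inhibitory Ly49 receptors, was at 92.9 and 79.9 RPKM in TRAIL+ cells and at 70.3 and 55.5 RPKM in CD49b+ cells. These ranges did not overlap, and the log2 fold change of 0.46 (95% interval -0.02 to 0.93) did not pass (limma adjusted p = 0.272). Ptpn11, which encodes SHP-2, an enzyme that promotes Ras signalling downstream of many receptors, was at 43.1 and 33.0 RPKM against 41.0 and 36.6 RPKM. Those ranges overlapped (-0.04, 95% interval -0.52 to 0.44, limma adjusted p = 0.960).

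Ptpn7, which holds ERK and p38 inactive in blood cells through a kinase interaction motif, was at 143 and 109 RPKM in TRAIL+ cells and at 96.0 and 79.2 RPKM in CD49b+ cells. Each TRAIL+ library lay above each CD49b+ library, but the log2 fold change of 0.51 (95% interval -0.01 to 1.03) did not pass (limma adjusted p = 0.257). Ptpn1, which encodes PTP1B, a regulator of insulin and cytokine receptors, was at 54.6 and 51.4 RPKM against 65.2 and 62.0 RPKM (-0.26 ± 0.15 SE, limma adjusted p = 0.455). Ptpn2, which encodes TC-PTP, a phosphatase of Jak and Stat proteins, was at 7.68 and 9.51 RPKM against 9.72 and 10.6 RPKM (-0.23 ± 0.20 SE, limma adjusted p = 0.668). For Ptpn1 and Ptpn2 the TRAIL+ libraries were the lower ones, by less than the test could resolve.

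The remaining tested Ptpn genes (Ptpn3, Ptpn4, Ptpn9, Ptpn21 and Ptpn23) ranged from 0.850 to 34.8 RPKM in single libraries and were not called. Ptpn3 and Ptpn9 had an unadjusted p under 0.05, and Ptpn9 passed with the trend on gene length removed (adjusted p = 0.0399). The nearest to the threshold was Ptpn3, chosen after its values were seen, at 3.23 and 2.23 RPKM in TRAIL+ cells and 0.850 and 0.954 RPKM in CD49b+ cells (limma adjusted p = 0.0857). It passed without TRAIL+ replicate 2 (adjusted p = 0.0399), with voom on whole reads (0.045) and with the length trend removed (0.0395). Ptpn5, Ptpn13 and Ptpn14 were under the filter with at most 9 reads in a library, and Ptpn20 was listed at 0. Of the Dusp genes, Dusp13, Dusp14, Dusp15, Dusp21, Dusp26 and Dusp27 were listed at 0, which brings the genes at 0 in all libraries to 17 of 63.

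**Figure D4:**
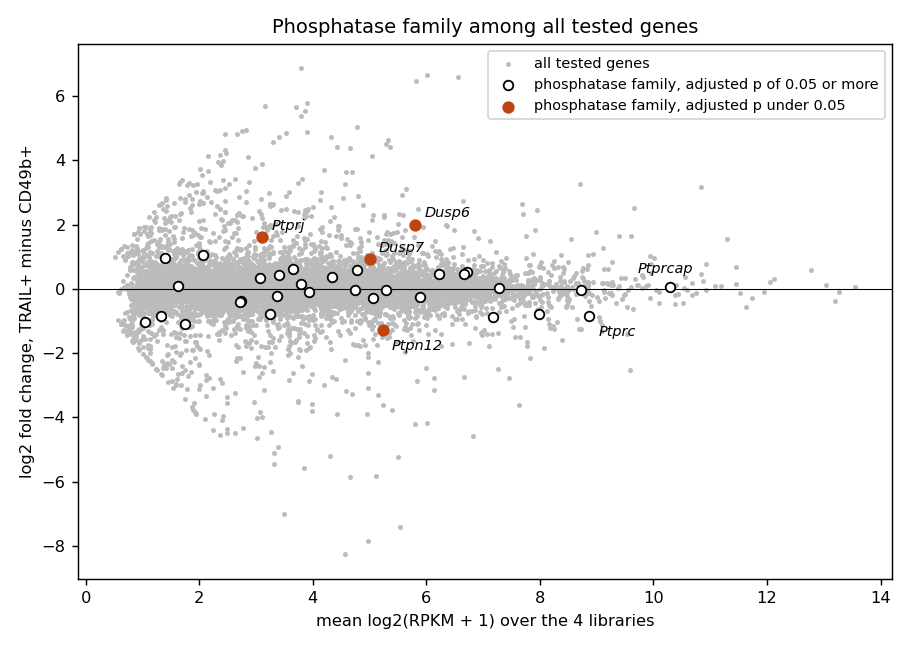
Log2 fold change (TRAIL+ minus CD49b+) against mean log2(RPKM + 1) over the 4 libraries for the 10047 tested genes (grey) and the 34 tested phosphatase-family genes (circles, filled where called). The family lies within the cloud of all genes, with Dusp6 at 2.00 and Ptpn12 at -1.28 as its highest and lowest points.

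The genes these phosphatases act on or with were read from lists of kinases, regulators and adaptors. Each count of calls below from all libraries stands beside 4.76% called higher and 3.86% called lower over all tested genes. Those shares do not apply to counts with a library left out. Among the MAP kinases and the kinases above them, 0 of 26 tested were called by limma, 0 had an unadjusted p under 0.05 and 0 were called by voom on whole reads, with a median log2 fold change of -0.05. Without TRAIL+ replicate 2, 1 of them was called higher. With 8.62% of all tested genes called, a list of this size would hold few calls, so 0 is no result about it.

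Among Ras proteins, their activators and inhibitors, 4 of 18 were called, each lower in TRAIL+ cells, with a list median of -0.05. Without TRAIL+ replicate 1 the lower ones were 6, and without either CD49b+ library they were 2. Rasa3, a Ras GTPase-activating protein, had -2.46 on the log2 scale (limma adjusted p = 0.00107). Rasgrp2, an exchange factor chiefly for Rap1, had -1.75 (limma adjusted p = 0.00533). Spry4, a Sprouty inhibitor that, like Dusp6, is a known target of ERK signalling, had -1.22 (limma adjusted p = 0.0418). Spry4 no longer passed when CD49b+ replicate 1 (adjusted p = 0.203), CD49b+ replicate 2 (0.0714) or TRAIL+ replicate 2 (0.0537) was left out. Spry4 was also a low gene, with 8 and 4 reads in TRAIL+ and 46 and 33 reads in CD49b+ libraries. Its tested relatives Spry2 (-0.72, limma adjusted p = 0.312), Spred1 (-0.05) and Spred2 (0.26) were not called.

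Of the 20 tested immediate-early genes 1 was called, Nr4a2, lower in TRAIL+ cells at -1.65 (limma adjusted p = 0.031). The list median was -0.75, with 17 of 20 values below 0. The count of calls depended on which library was left out. Without TRAIL+ replicate 1, the TRAIL+ library kept was replicate 2, in which all 20 were lower than in replicate 1. Fos was at -1.38 without TRAIL+ replicate 1 and at -0.59 without TRAIL+ replicate 2. Nr4a2 lost its call without CD49b+ replicate 1 and also without CD49b+ replicate 2.

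Of 17 tested non-receptor tyrosine kinases (Src, Syk, Tec and Jak families, Csk, Ptk2b and Abl1), 3 were called higher and 3 lower in TRAIL+ cells, with a list median of 0.05. Higher were Fgr, a Src family kinase (1.59), Jak2 (1.20) and Zap70, the kinase that binds phosphorylated receptor chains (0.96). Lower were Fyn, a Src family kinase (-1.28), and the cytokine receptor kinases Jak1 (-1.24) and Tyk2 (-1.24). Without CD49b+ replicate 1, and likewise without replicate 2, Fgr was the 1 gene of the list still called, and without TRAIL+ replicate 1 the higher ones were 5 and the lower ones 4. Lck and Csk, which CD45 and Ptpn22 act on or with, were at 335 to 372.5 RPKM and 209 to 235 RPKM and were not called (limma adjusted p = 0.927 and 0.974). Both were chosen for mention after their values were seen.

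Most receptors and adaptors of the next list are known to recruit the SH2-domain phosphatases, though this is not established for Trat1. Of the 14 tested, 3 were called higher and 4 lower, beside 4.76% and 3.86% of all tested genes, with a list median of -0.13. Klrg1, an inhibitory receptor of mature NK cells, had a log2 fold change of -5.23 (4.68 and 8.71 RPKM in TRAIL+, 252 and 306 RPKM in CD49b+ cells). Pdcd1, which encodes the inhibitory receptor PD-1, had 3.22, with 64 and 81 reads in TRAIL+ and 1 and 1 in CD49b+ libraries. Lair1, a collagen receptor, had -2.93, Slamf6 had -2.36, the adaptor Gab2 had -2.05, and Trat1, a T cell receptor-associated adaptor, had 2.11. Trat1 no longer passed when CD49b+ replicate 2 was left out (adjusted p = 0.0777), and 1 gene of the list was then called higher. Ptpn6 and Ptpn11, which encode the SH2-domain phosphatases, were not called.

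A last list held phosphatases outside the Ptpr, Ptpn and Dusp names, from the same cysteine-based superfamily and, for the Eya and Ubash3 genes, from other families. Of 23 tested, 2 were called higher and 3 lower, with a list median of -0.07. Ubash3a, which encodes a suppressor of T cell receptor signalling, had a log2 fold change of 1.57, and Eya2 had 0.80. Pald1 had -3.26, Eya1 had -2.24 and Cdc25b, which activates cyclin-dependent kinases, had -2.05. Eya2 no longer passed when CD49b+ replicate 1 (adjusted p = 0.41) or replicate 2 (0.399) was left out, nor Ubash3a without CD49b+ replicate 1 (0.0562). Without TRAIL+ replicate 1 the genes called lower were 6.

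**Figure D5:**
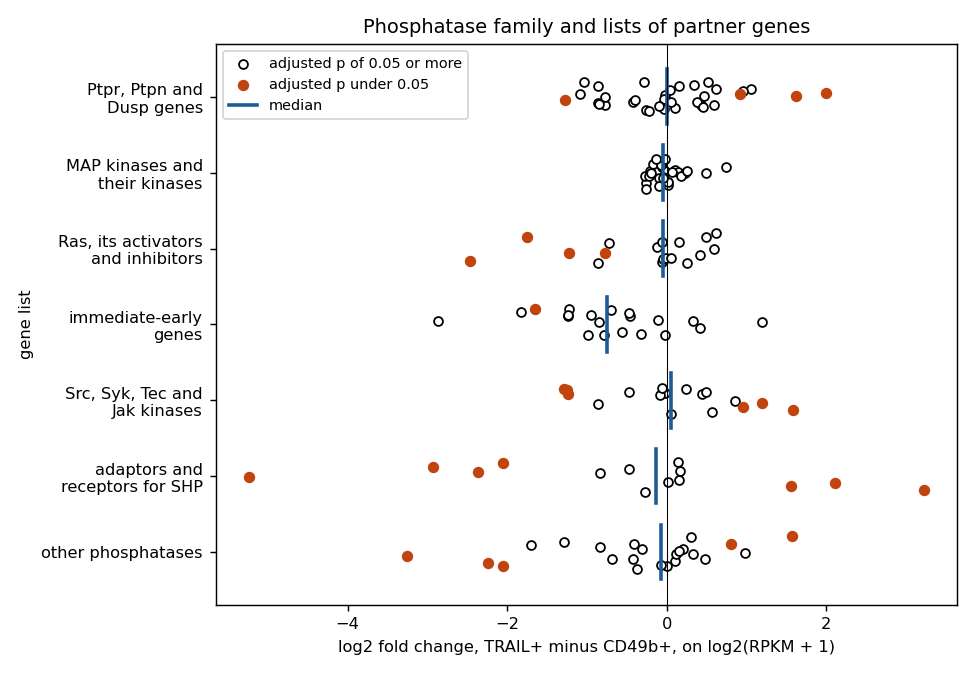
Log2 fold change (TRAIL+ minus CD49b+, on the log2(RPKM + 1) scale) of each tested gene of the phosphatase family and of 6 lists of partner genes, with filled points for limma adjusted p under 0.05 and a bar at each list's median. The medians lie close to 0 except that of the immediate-early genes at -0.75, and the receptors and adaptors spread widest, from -5.23 to 3.22.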

How the data were processed

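PolyA RNA-seq libraries of TRAIL+ and CD49b+ liver NK cells, 2 of each, were grouped by their titles. Per the file headers, the authors deposited RPKM values. The submitters' processing notes name TopHat 1.4.1 and the build mm9. How reads were counted, filtered and assigned to strands was not given in the sources used here. Reads of overlapping or antisense genes could therefore be mixed. Gapdh, a highly expressed gene with near-identical pseudogenes, was at only 2.10 to 5.33 RPKM, and the cause was not tested.

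The members, gene lists and motifs were chosen with earlier results of these data known. Genes that reached 1 RPKM in 2 or more libraries were tested on log2(RPKM + 1), computed from the deposited RPKM, with limma 3.58.1 in R 4.3.3 (lmFit, eBayes with a trended prior), with no block. This scale understates the change of low genes. Values are TRAIL+ minus CD49b+, called at a Benjamini-Hochberg adjusted p under 0.05 over 10047 genes. Intervals are 95%. With 2 against 2 libraries the smallest exact permutation p is 0.333, so none was run for single genes. The fit was tested on simulated data.

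RPKM values moved in whole steps, and for 99.98% of 13681 genes above 0 a length was found that gave whole reads in every library (relative tolerance 1e-09). That length was within 10% of the annotated one for 81.1% of 10858 genes with 1 accession, and for 33 of 45 phosphatase genes. Reads of the others, Ptpn2 among them, are uncertain. Summed over genes, the reads came to 4105298 to 4594181 per library, above the library totals of 3786497 to 4232967. The cause of this excess was not tested. Reads are used for depth, low genes, gene lengths and the voom alternative. Intervals from reads cover counting error only, and a ratio to the floor leaves out the counting error of the other group.

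Values per library are given for called members, for the 10 with the highest mean RPKM and for a fixed list of well-known members, and others by range. Of the partner lists, called genes are named, up to 6 by size, except 1 gene that is not reported here. Alternatives were other pseudocounts, filters, scalings and priors, a replicate block, voom on whole reads, each library left out and a gene length correction. With 1 library left in a group, that library is assumed to vary like the other group.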

Additional observations from a re-analysis of the deposited data

How the results depend on the processing

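With 2 libraries per group, the counts of calls depended on single libraries. Leaving out each library in turn gave 1 to 5 phosphatase genes higher in TRAIL+ cells (3 with all libraries), 0 to 5 lower (1), 245 to 777 of all tested genes higher (478) and 198 to 763 lower (388). Removing a trend on gene length, an alternative added after the data had been seen, gave 6 and 3 phosphatase genes and 586 of all genes lower. The number of phosphatase genes called lower was 2 with a pseudocount of 5, with no filter on low values, with a prior without a trend and with voom on whole reads. The replicate block gave 10 phosphatase genes higher and 7 lower, and 1049 and 833 of all genes. The phosphatase genes it added were Dusp10, Dusp16, Ptpn3, Ptpn6, Ptpn7, Ptpn9 and Ptpn22 as higher and Dusp2, Dusp3, Dusp18, Dusp22, Ptprc and Ptprs as lower. Same-numbered libraries deviated together (correlation 0.56). The labels do not say that a number marks a shared animal or day, so whether the libraries are paired is not known. The cause of these shifts was not tested.

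Over 14 alternatives there were 470 values of single phosphatase genes, of which 416 kept direction and call, 6 lost a call, 29 gained one and 19 changed sign, all of genes not called. Leaving out each library in turn gave -0.66 to 0.61 for Dusp1, -1.84 to 0.11 for Dusp5, -0.23 to 0.15 for Ptpn11, -0.33 to 0.40 for Ptpn18, -0.25 to 0.46 for Ptpn21, -0.25 to 0.17 for Ptpra, -0.26 to 0.37 for Ptprcap and -0.21 to 0.0092 for Ptpre. The length correction changed the sign for Ptpn11 (0.0036), Ptpn18 (-0.036), Ptpra (0.039) and Ptprcap (-0.082), and quantile normalization for Ptprcap (-0.10).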
